A study of Homo sapiens with 12 samples.

Results

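HCT116 cells, an established human colorectal carcinoma line, expressed 166 genes with antisense RNA names at a measurable level, of which the current annotation types 158 as lncRNA, 6 as protein-coding and 2 as pseudogenes. After 24 h in 1% O2, 33 of the 166 (19.9%) were called changed, 18 higher and 15 lower, beside 18.3% of all genes tested, and rescaling to TPM, under which 1.28% of all genes were called higher and 23.3% lower, gave 6 higher and 25 lower. A gene was included when its symbol ended in -AS1, -AS2 or -AS3, when its transcripts matched an annotated transcript exactly or shared a splice junction with one (class codes = and j), and when the FPKM summed over those transcripts was above 0.5 in at least 3 of the 12 libraries. Of 828 such symbols in the table, 356 were listed at 0 in every library, 306 were above 0 but below the threshold, and 166 were kept, out of 16679 gene names that passed the same filter and 56536 in all. Because the members were chosen by their FPKM, their levels are given as a description without a test.

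Cells at 0 h had been kept in 21% oxygen, and the other 3 groups had spent 1, 2 or 24 h in 1% O2 in a hypoxia workstation, starting 24 h after plating. No group was kept in 21% oxygen for the same 24 h. In the comparison of 24 h with 0 h, low oxygen and longer time in culture therefore cannot be told apart. Each time point had 3 libraries of polyadenylated RNA, sequenced with strand information as paired reads. The study calls the libraries of a time point biological replicates, but neither it nor the labels say how they were kept apart, so p-values measure the spread between these libraries. All values come from 1 cell line with no added agent or allele, and the expressed genes are those of that line.

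An antisense RNA is transcribed from the strand opposite to a gene, which is called its sense gene and whose symbol stands before the hyphen. Some start beside the promoter of the sense gene and run away from it, so that a single stretch of open DNA serves both, and others lie across the exons or introns of the sense gene. Individual antisense RNAs are known to act on chromatin, to bind microRNAs or proteins, or to host small nucleolar RNAs, while many have no known function, and short unstable RNAs made at promoters are removed by the nuclear exosome. In low oxygen the hypoxia-inducible factors HIF1A and EPAS1 escape degradation, pair with ARNT and bind the core letters ACGTG or GCGTG at genes for glucose uptake, glycolysis and blood vessel growth.

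The libraries behaved as a hypoxia time course in epithelial cells. All 12 genes of a list of known HIF targets were called higher at 24 h, beside 8.76% of all genes tested, with a median log2 fold change of 3.39. Under TPM 10 were called higher, beside 1.28% of all genes, with a median of 2.44. At 2 h, 3 of the 12 had an adjusted p under 0.05 (limma), beside 0.312% of all genes tested. EPCAM, KRT8, KRT18, KRT19, CDH1 and CLDN7 were above the threshold in all 12 libraries, whereas VIL1 reached at most 0.048 FPKM and COL1A1, a fibroblast collagen, ranged from 1.58 to 8.79 FPKM. PTPRC, CD3E, PECAM1, COL3A1, LUM and HBB stayed at or near 0, with 0.0357 FPKM as their highest value. FPKM keeps no read total, so the depth behind each value cannot be read from the files. Transcripts shorter than 300 bases held 57.0% to 87.6% of the summed FPKM, whereas the median FPKM of all genes tested lay between 8.25 and 8.48 in every library.

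Most of the antisense RNAs were scarce. FPKM is scaled by transcript length, so levels can be set side by side between genes: the mean FPKM over 12 libraries was above 10 for 16 members, from 1 to 10 for 93 and under 1 for 57. The median of these means was 1.594 FPKM, beside 8.66 FPKM over all genes tested. At the edge of the threshold, the third-highest FPKM of the 12 libraries was 0.511 for both HOXD-AS2 and RHPN1-AS1 and 0.529 for CAPN10-AS1, which were kept. It was 0.490 for SRRM2-AS1, 0.486 for SEC24B-AS1 and 0.484 for SLC25A5-AS1, which were not. The threshold was passed in every library by 102 members and in no 24 h library by 14. It was passed at 24 h alone by FAM13A-AS1 and HIF1A-AS2. Without the 24 h libraries, 8 members would have been below it, among them 4 of those called higher (FAM13A-AS1, HIF1A-AS2, SLC2A1-AS1 and TOB1-AS1). These 4 were kept through the group in which they were high, so their calls count as no support. The other 4 were not called.

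C17orf76-AS1 was by far the most abundant. This RNA, now named SNHG29, is a host gene of small nucleolar RNAs. It measured 654, 653 and 672 FPKM at 0 h and 952, 1191 and 736 FPKM at 24 h, so that the groups did not overlap while the 24 h libraries spread widely (log2 fold change 0.51, SE 0.15, limma adjusted p = 0.0101), and it was not called. THAP9-AS1 measured 34.2, 41.1 and 37.7 FPKM at 0 h and 16.9, 28.4 and 36.6 FPKM at 24 h, with overlapping groups (adjusted p = 0.0527). FGD5-AS1 measured 29.7, 32.6 and 34.5 FPKM at 0 h and 29.4, 27.0 and 26.9 FPKM at 24 h (adjusted p = 0.0548). OIP5-AS1, a conserved RNA also called Cyrano that carries a site for the microRNA miR-7, measured 27.8, 31.7 and 33.0 FPKM at 0 h and 17.4, 21.9 and 21.9 FPKM at 24 h. Its 24 h libraries were all lower, by 0.59 on the log2 scale (adjusted p = 0.00153), which is short of the 2-fold threshold. NCBP2-AS2, which the current annotation lists as a protein-coding gene, had 23.9 ± 3.54 FPKM at 0 h and 14.8 ± 2.45 at 24 h (SD, n = 3, log2 fold change -0.68, adjusted p = 0.00489).

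No antisense RNA was called in the first 2 h of hypoxia, when log2 fold changes ranged from -0.57 to 1.09 at 1 h and from -0.72 to 0.85 at 2 h. A gene was called when its FPKM, on the scale log2(FPKM + 0.5), differed from 0 h by more than 1 with an adjusted p under 0.01, using limma over all 12 libraries with Benjamini-Hochberg adjustment over all 16679 gene names. At 1 h the test called 0 of the 166 beside 0.006% of all genes tested, and 15 of 166 had an unadjusted p under 0.05, beside 4.61% of all genes. At 2 h it also called 0 beside 0.018% of all genes, and 20 of 166 had an unadjusted p under 0.05, beside 15.3% of all genes. With the replicate number as a block, 0 were called at 2 h, beside 4 of all 16679 genes. ADIRF-AS1 and TRIM52-AS1 then had an adjusted p under 0.05, for which no share of all genes with the block is given. TRIM52-AS1, chosen here after its values were seen, was the member with an adjusted p under 0.05 at 2 h without the block. It measured 7.57, 7.93 and 8.49 FPKM at 0 h, 9.59, 10.9 and 10.9 at 1 h, 12.4, 12 and 13.9 at 2 h, and 13.0, 13.0 and 11.1 at 24 h. Every 2 h library was above every 0 h library (log2 fold change 0.64, adjusted p = 0.0340), and the 24 h libraries were at about the 2 h level. TRIM52, its sense gene, had 3.05 ± 0.825 FPKM at 0 h and 4.47 ± 1.26 at 24 h (SD, n = 3), with overlapping groups.

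At 24 h, 33 of the 166 were called, which is 19.9% of them, beside 18.3% of all genes tested. The 18 called higher stood beside a background of 8.76% and the 15 called lower beside 9.51%, so the share of members that moved was near that of genes in general. The median log2 fold change was 0.05, against -0.05 for all genes tested. In bulk RNA, fewer cells with an RNA and less of it per cell cannot be told apart. At an adjusted p under 0.05, with no threshold on the fold, 77 members passed (42 higher, 35 lower), beside 55.3% of all genes. In 47 members every 24 h library was above every 0 h library, beside 27.6% of all genes, and in 42 every one was below, beside 32.8%. Among the 158 members that passed the threshold without the 24 h libraries, 14 were called higher and 15 lower, and among the 152 that passed it in at least 1 library at 24 h, 18 were called higher and 12 lower. Rescaling every library to TPM, a scale that the short transcripts dominate, lowered the median of all genes to -0.68 and moved the split of 18 higher and 15 lower to 6 and 25, beside 1.28% of all genes called higher and 23.3% lower on that scale. A pseudocount of 1 in place of 0.5 left 7 of the 15 called lower, beside 8.05% of all genes. Scaling by medians of ratios gave 22 higher and 13 lower, beside 9.84% and 8.27% of all genes.

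**Figure D1:**
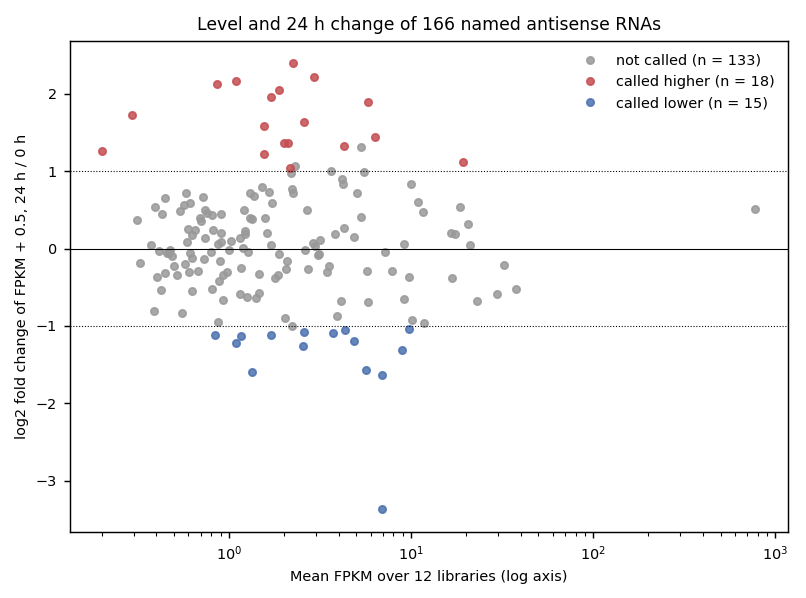
Log2 fold change at 24 h against 0 h, on the scale FPKM + 0.5 (vertical), against the mean FPKM over 12 libraries on a log axis (horizontal), with 1 point per antisense RNA. Red points are the 18 called higher, blue points the 15 called lower and grey points those not called, and dotted lines mark changes of 1 in either direction. VPS9D1-AS1 is the lowest point at -3.37, and C17orf76-AS1 is the point farthest to the right.

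Among the antisense RNAs that rose were those of the glucose transporter gene SLC2A1 and of HIF1A itself. SLC2A1-AS1, now called SLC2A1-DT, starts 181 bases from the start of SLC2A1, which encodes GLUT1, and is transcribed away from it. It measured 0.302, 0.283 and 0.389 FPKM at 0 h, 0.275, 0.487 and 0.448 at 1 h, 0.272, 0.639 and 0.440 at 2 h, and 2.76, 3.53 and 3.34 at 24 h. The first 9 libraries overlapped and the 24 h libraries stood clear of them all (log2 fold change 2.17, SE 0.19, limma adjusted p = 2.81e-06). Its main transcript, ENST00000431759, of 1124 bases, went from 0.237 ± 0.0472 to 1.97 ± 0.241 FPKM, and a spliced variant of 1796 bases went from 0.0239 ± 0.0273 to 0.990 ± 0.104 FPKM (SD, n = 3).

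HIF1A-AS2, on the strand opposite to the gene of the oxygen-regulated HIF subunit, was listed at 0 in all 3 libraries at 0 h and all 3 at 1 h, at 0.0527, 0 and 0 FPKM at 2 h, and at 1.48, 1.10 and 0.910 FPKM at 24 h. All of it came from 1 transcript of 533 bases, ENST00000554254, which the current annotation places in HIF1A-AS3. Its span on hg19, chr14:62182276-62217881 on the minus strand, begins beyond the end of HIF1A and reaches back across it, with no exon overlapping a HIF1A exon. The value of 1.72 on the log2 scale (SE 0.19, adjusted p = 1.20e-05) depends on the 0.5 added to each FPKM. FAM13A-AS1 was as scarce before 24 h, at 0 to 0.0515 FPKM in 9 libraries, and measured 0.727, 0.672 and 0.858 FPKM at 24 h (log2 fold change 1.26, adjusted p = 7.49e-05).

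TOB1-AS1 begins inside the span of TOB1 and runs out of it on the opposite strand, and one of its start sites lies 325 bases from the start of a TOB1 transcript. TOB1 is an antiproliferative gene whose protein recruits the deadenylation complex CCR4-NOT. It measured 0.106, 0.173 and 0.253 FPKM at 0 h, 0.229, 0.314 and 0.653 at 1 h, 0.389, 0.255 and 0.593 at 2 h, and 2.60, 2.27 and 2.44 at 24 h. The libraries at 0, 1 and 2 h overlapped, and the 24 h libraries lay above all of them (log2 fold change 2.12, SE 0.21, adjusted p = 7.13e-06). Of the 3 transcripts of TOB1-AS1 with any signal, ENST00000416263, of 1351 bases, held 89.6% of the FPKM.

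The promoter windows of SLC2A1-AS1, HIF1A-AS2 (as RefSeq HIF1A-AS3), TOB1-AS1 and FAM13A-AS1, 4 antisense RNAs that rose from under 0.5 FPKM, and of VPS9D1-AS1, which fell most, are shown for the presence or absence of the HIF core letters. They are RefSeq sequences on GRCh38.p14, running 5′ to 3′ on the strand of the antisense RNA from 250 bases before its start to 50 after, with each ACGTG or GCGTG on either strand in capitals (CACGT or CACGC when on the other strand).
SLC2A1-AS1, chr1:42958799-42959098, plus strand: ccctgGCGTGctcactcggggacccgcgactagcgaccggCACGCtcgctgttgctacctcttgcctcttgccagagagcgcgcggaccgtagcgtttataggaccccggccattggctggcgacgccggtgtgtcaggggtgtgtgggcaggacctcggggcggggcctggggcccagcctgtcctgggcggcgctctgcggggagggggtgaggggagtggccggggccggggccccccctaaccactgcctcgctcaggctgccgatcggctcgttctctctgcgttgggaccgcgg
HIF1A-AS2, chr14:61751048-61751347, minus strand: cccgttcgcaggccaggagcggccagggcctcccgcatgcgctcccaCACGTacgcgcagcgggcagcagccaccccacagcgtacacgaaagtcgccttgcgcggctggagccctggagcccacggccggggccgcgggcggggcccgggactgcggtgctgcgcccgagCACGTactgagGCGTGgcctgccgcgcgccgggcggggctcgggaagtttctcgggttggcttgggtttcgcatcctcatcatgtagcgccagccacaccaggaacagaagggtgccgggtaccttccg
TOB1-AS1, chr17:50866429-50866728, plus strand: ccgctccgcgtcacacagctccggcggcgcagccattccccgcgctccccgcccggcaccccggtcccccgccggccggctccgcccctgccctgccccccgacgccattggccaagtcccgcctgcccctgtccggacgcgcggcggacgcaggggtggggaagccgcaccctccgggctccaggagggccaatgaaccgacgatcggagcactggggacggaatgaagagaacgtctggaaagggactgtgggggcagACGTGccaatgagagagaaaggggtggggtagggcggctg
FAM13A-AS1, chr4:88709539-88709838, plus strand: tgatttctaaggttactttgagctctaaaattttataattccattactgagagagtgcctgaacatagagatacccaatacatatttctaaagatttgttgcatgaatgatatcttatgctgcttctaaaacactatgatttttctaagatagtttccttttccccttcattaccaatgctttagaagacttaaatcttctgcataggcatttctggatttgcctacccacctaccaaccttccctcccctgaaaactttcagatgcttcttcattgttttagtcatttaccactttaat
VPS9D1-AS1, chr16:89711606-89711905, plus strand: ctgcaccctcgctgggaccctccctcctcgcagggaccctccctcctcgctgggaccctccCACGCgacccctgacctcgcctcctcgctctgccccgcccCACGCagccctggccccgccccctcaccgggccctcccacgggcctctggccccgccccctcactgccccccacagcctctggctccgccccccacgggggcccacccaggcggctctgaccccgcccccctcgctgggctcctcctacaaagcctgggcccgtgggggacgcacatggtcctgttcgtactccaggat
The window of HIF1A-AS2 held the letters 3 times, those of SLC2A1-AS1 and VPS9D1-AS1 held them 2 times each, and that of TOB1-AS1 held them once, just after the start. FAM13A-AS1 had none, in a window with 34.3% G and C against 72.3% to 75.7% in the other 4. A match is a string of letters and says nothing on binding.

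On the log2(FPKM + 0.5) scale, which understates the change of scarce RNAs, the largest change among the risen was that of DICER1-AS1, opposite the RNase that cuts microRNA precursors. It measured 0.476, 0.821 and 0.698 FPKM at 0 h, 0.719, 0.756 and 1.94 at 1 h, 0.671, 1.28 and 2.71 at 2 h, and 7.01, 5.15 and 4.81 at 24 h. Replicate 3 was the highest at both 1 h and 2 h, and all 24 h libraries were above all others (log2 fold change 2.40, SE 0.35, adjusted p = 1.11e-04). HLA-F-AS1, opposite a nonclassical MHC class I gene, measured 0.585, 1.45 and 2.03 FPKM at 0 h and 7.96, 8.08 and 6.996 FPKM at 24 h (log2 fold change 2.22, SE 0.26, adjusted p = 2.10e-05). Its groups were far apart although the 0 h libraries differed among themselves, and reads shared with other HLA genes could make its level uncertain. FEZF1-AS1 measured 0.922, 0.522 and 1.02 FPKM at 0 h and 5.95, 4.47 and 4.38 FPKM at 24 h (log2 fold change 2.05, adjusted p = 2.52e-05), while FEZF1, a forebrain transcription factor gene, was below the threshold. UNC5B-AS1 lies inside the gene of the netrin receptor UNC5B and measured 0.842, 0.489 and 0.902 FPKM at 0 h and 4.52, 4.14 and 4.19 FPKM at 24 h (log2 fold change 1.96, adjusted p = 2.15e-05).

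The other 10 called higher had log2 fold changes from 1.04 to 1.90. ADIRF-AS1 measured 2.93, 2.22 and 3.06 FPKM at 0 h, 3.61, 4.45 and 7.43 at 2 h, and 10.8, 9.03 and 15.5 at 24 h (log2 fold change 1.90, adjusted p = 5.20e-05). CD27-AS1, whose sense gene encodes a lymphocyte receptor and was below the threshold, measured 0.941, 1.55 and 1.71 FPKM at 0 h and 7.30, 5.50 and 3.68 FPKM at 24 h (log2 fold change 1.63, adjusted p = 6.07e-04). TPT1-AS1 measured 5.22, 4.27 and 4.24 FPKM at 0 h, 3.19, 3.38 and 3.43 at 2 h, and 12.5, 12.1 and 15.2 at 24 h, so its 2 h libraries lay below those at 0 h and its 24 h libraries above (log2 fold change at 24 h 1.44, adjusted p = 4.12e-06). PRKAG2-AS1, beside a gene for a regulatory subunit of the energy sensor AMPK, measured 1.26, 1.37 and 1.15 FPKM at 0 h and 3.41, 3.88 and 4.97 FPKM at 24 h (log2 fold change 1.37, adjusted p = 6.02e-05). The 4 members from HOX clusters, which carry the body-axis transcription factor genes, did not share a call. HOXC-AS1 rose from 0.878 ± 0.232 to 3.65 ± 0.976 FPKM (SD, n = 3, adjusted p = 0.00104), and the log2 fold changes of HOXA-AS2, HOXB-AS1 and HOXD-AS2, which were not called, were 0.24, 0.45 and -0.36. MKLN1-AS1, now named LINC-PINT, rose from 2.68 ± 0.209 to 7.47 ± 0.846 FPKM (SD, n = 3, adjusted p = 3.56e-05). TIPARP-AS1 had a log2 fold change of 1.36, OSER1-AS1 of 1.22, MMP24-AS1, one of the 6 typed as protein-coding, of 1.12 and MFI2-AS1 of 1.04.

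**Figure D2:**
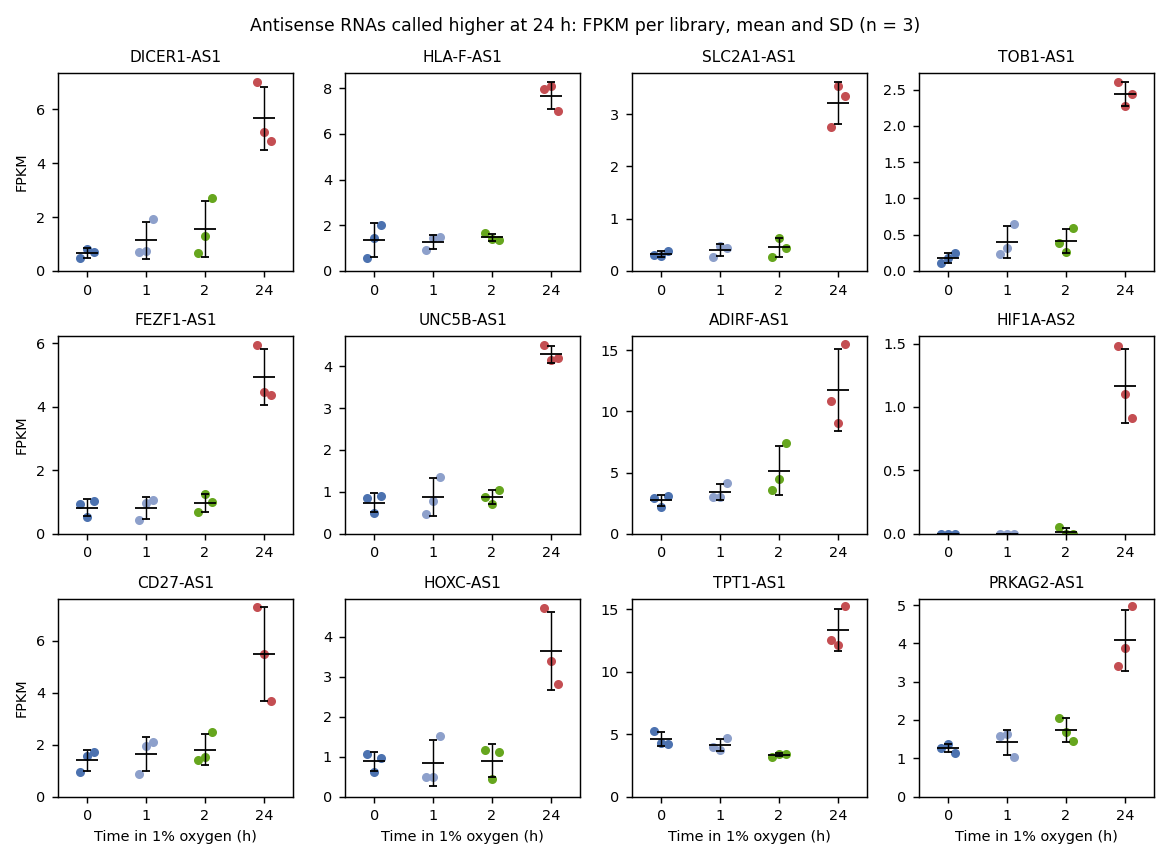
FPKM in each library for the 12 antisense RNAs with the largest increases at 24 h, with the 4 time points, in hours in 1% oxygen, evenly spaced on the horizontal axis, 1 point per library, and bars for the mean and SD of 3 libraries; each panel has its own FPKM axis from 0. In all 12 panels the 24 h libraries lie above every library at 0 h, and HIF1A-AS2 is at 0 in all 6 libraries at 0 h and 1 h.

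On the same scale VPS9D1-AS1 had the largest change of the 166, in either direction. This RNA is also known as MYU, a target of MYC in colon cancer cells, and it lies inside the span of VPS9D1, with 4 exons overlapping and a start site 212 bases from that of a VPS9D1 transcript. It measured 10.1, 10.4 and 12.02 FPKM at 0 h, 8.49, 7.96 and 7.19 at 1 h, 8.58, 8.28 and 8.01 at 2 h, and 0.950, 0.398 and 0.512 at 24 h. Every library at 1 h and 2 h was below every library at 0 h, and the 24 h libraries were far below those (log2 fold change at 24 h -3.37, SE 0.17, adjusted p = 7.25e-08). The transcript ENST00000562866, of 1753 bases, held 92.2% of its FPKM.

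DGUOK-AS1 lies opposite the gene of the mitochondrial deoxyguanosine kinase. It measured 9.21, 9.52 and 8.02 FPKM at 0 h, 7.75, 8.37 and 8.14 at 2 h, and 2.63, 2.08 and 2.96 at 24 h (log2 fold change -1.63, SE 0.14, adjusted p = 2.65e-06). ZBTB11-AS1 measured 1.52, 2.13 and 2.24 FPKM at 0 h and 0.242, 0.321 and 0.364 FPKM at 24 h (log2 fold change -1.60, adjusted p = 1.73e-05), and was below the threshold in all 24 h libraries. ENTPD1-AS1 measured 14.7, 9.95 and 10.1 FPKM at 0 h and 3.62, 3.91 and 5.64 FPKM at 24 h (log2 fold change -1.31, adjusted p = 2.89e-04). ENTPD1, which encodes the ATP-cleaving enzyme CD39, was below the threshold, as was PRKCQ, the gene of protein kinase C theta. PRKCQ-AS1 itself measured 2.78, 3.49 and 3.21 FPKM at 0 h and 0.960, 1.10 and 1.02 FPKM at 24 h (log2 fold change -1.26, adjusted p = 6.54e-05).

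FAM222A-AS1 measured 8.99, 6.06 and 5.95 FPKM at 0 h and 1.36, 2.14 and 2.67 FPKM at 24 h (log2 fold change -1.56, adjusted p = 2.69e-04). PRRT3-AS1 measured 6.44, 6.19 and 5.37 FPKM at 0 h and 1.60, 3.37 and 2.30 FPKM at 24 h (log2 fold change -1.19, adjusted p = 2.75e-04), so both had fallen in every 24 h library. DYNLL1-AS1, now called NRAV and known for a role in the response to viruses, measured 5.51, 5.24 and 5.37 FPKM at 0 h, 4.30, 4.22 and 3.90 at 1 h, 3.15, 3.85 and 2.43 at 2 h, and 2.14, 2.07 and 2.59 at 24 h. The libraries at 1 h and at 2 h were all below those at 0 h, but the change at 2 h did not pass (log2 fold change -0.71, adjusted p = 0.0823), and that at 24 h did (-1.09, adjusted p = 8.14e-05). MAFG-AS1, beside the gene of a small MAF transcription factor, measured 3.60, 3.61 and 3.29 FPKM at 0 h and 1.80, 1.13 and 1.32 FPKM at 24 h (log2 fold change -1.07, adjusted p = 1.47e-04). The log2 fold change was -1.22 for GAS6-AS2, -1.14 for CHKB-AS1, -1.11 for ZBED3-AS1, -1.05 for ASB16-AS1 and -1.03 for RAB30-AS1. Of these, CHKB-AS1 had groups of 1.61, 1.05 and 1.88 FPKM at 0 h against 0.322, 0.563 and 0.338 at 24 h, and its call was lost without replicate 1 or 3 at 0 h and without replicate 1 or 3 at 24 h. The call of ZBED3-AS1 was lost without replicate 1 or 3 at 0 h or replicate 3 at 24 h. That of TIPARP-AS1, among the risen, was lost without replicate 1 or 2 at 0 h or replicate 2 or 3 at 24 h. Changes near the threshold went below it without single libraries in MAFG-AS1 (-0.96 without replicate 2 at 24 h), PRRT3-AS1 (-0.98 without replicate 1 at 24 h), ASB16-AS1 (-0.98 without replicate 1 at 0 h, -0.94 without replicate 2 at 24 h) and RAB30-AS1 (-0.98 without replicate 3 at 0 h, -0.93 without replicate 2 at 24 h). The same held among the risen for MFI2-AS1 (0.98 without replicate 1 at 24 h) and MMP24-AS1 (0.95 without replicate 1 at 0 h, 0.99 without replicate 3 at 24 h). With a pseudocount of 1, the calls of DYNLL1-AS1, MAFG-AS1, GAS6-AS2, CHKB-AS1, ZBED3-AS1, ASB16-AS1 and RAB30-AS1 were lost.

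**Figure D3:**
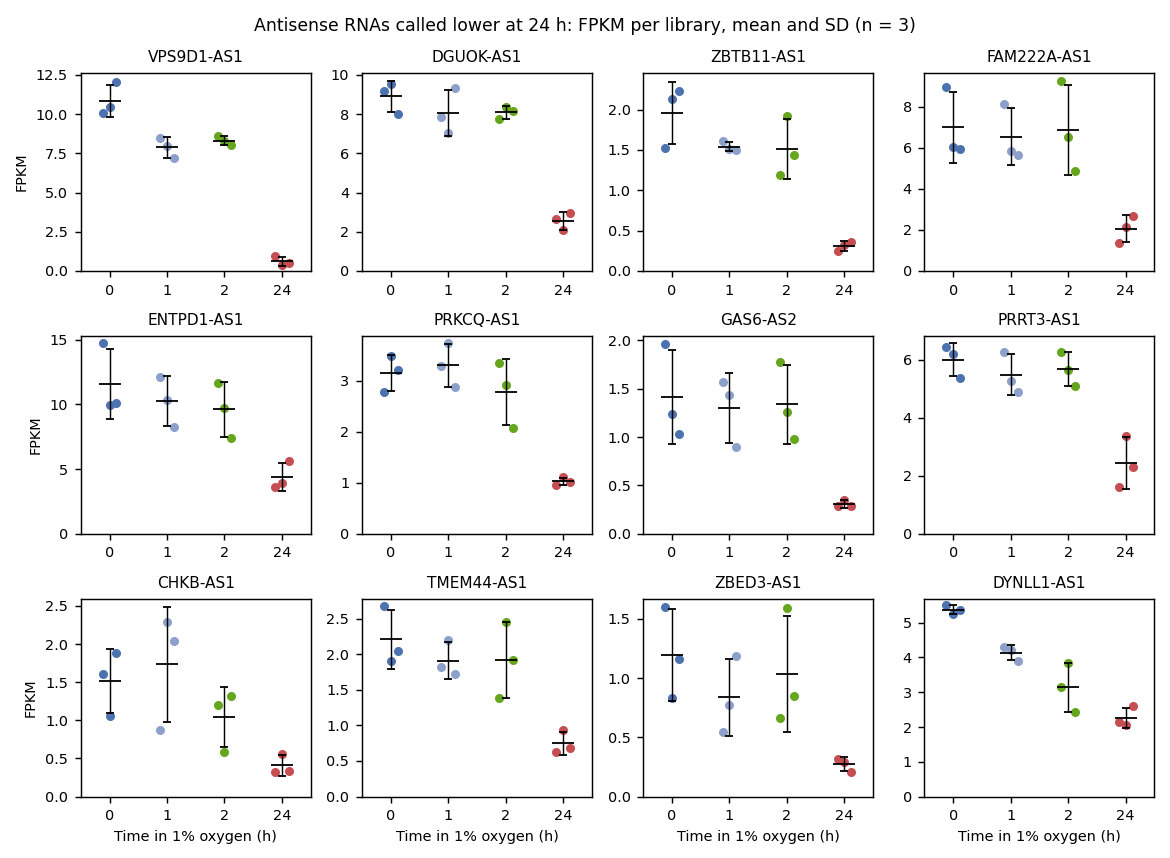
FPKM in each library for the 12 antisense RNAs with the largest decreases at 24 h, with the 4 time points, in hours in 1% oxygen, evenly spaced on the horizontal axis, 1 point per library, and bars for the mean and SD of 3 libraries; each panel has its own FPKM axis from 0. In all 12 panels every 24 h library lies below every library at 0 h, and VPS9D1-AS1 goes from 10.1 to 12.02 FPKM down to 0.398 to 0.950 FPKM.

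A list of 20 antisense RNAs was set for naming, with those of HIF1A and of the HIF target SLC2A1 among them, and 12 were kept. Of the 12, SLC2A1-AS1 and the gene named HIF1A-AS2 in the table rose and MAFG-AS1 fell, and the other 9 were not called, beside 18.3% of all genes called. Since the transcript behind the name HIF1A-AS2 now belongs to HIF1A-AS3, its value is not that of the gene which carries the name HIF1A-AS2 today. TMPO-AS1 measured 1.02, 1.28 and 1.44 FPKM at 0 h and 0.644, 0.655 and 0.664 FPKM at 24 h (log2 fold change -0.59, adjusted p = 0.0190). PCBP1-AS1, which was spread over 89 transcripts with signal, measured 9.80, 8.23 and 8.66 FPKM at 0 h and 6.72, 7.95 and 6.97 FPKM at 24 h (adjusted p = 0.0614). GAS6-AS1 measured 0.957, 1.41 and 1.25 FPKM at 0 h and 1.88, 1.54 and 1.80 FPKM at 24 h (log2 fold change 0.40, adjusted p = 0.108). Transcripts of GAS6-AS1 with other class codes, which were not counted, had a mean of 1.19 FPKM at 0 h and 0.684 at 24 h, the opposite direction. GAS6-AS2, at the other end of the same gene, fell from 1.41 ± 0.486 to 0.305 ± 0.0390 FPKM (SD, n = 3). The difference between GAS6-AS1 and GAS6-AS2 was not tested. The groups of ZEB1-AS1 (0.790 to 1.71 FPKM at 0 h and 1.01 to 2.38 at 24 h), FOXD2-AS1 (0.511 to 0.796 and 0.390 to 0.956), DDX11-AS1 (0.667 to 1.09 and 0.812 to 1.41), MCM3AP-AS1 (0.356 to 0.719 and 0.304 to 1.07) and VIM-AS1 (0.188 to 0.879 and 0.569 to 0.870) overlapped. Their log2 fold changes were 0.20, 0.13, 0.14, 0.08 and 0.25 in that order. Just inside the threshold, RHPN1-AS1 had a log2 fold change of -0.31, and CAPN10-AS1 one of -0.05.

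The sense gene passed the same filter for 141 antisense RNAs, with 137 distinct sense genes. It was below the threshold for 20, and 5 members had no sense gene of that name in the table. Of the 137 sense genes, 23 (16.8%) were called at 24 h, 13 higher and 10 lower, near the 18.3% of all genes tested, and under TPM 2 were called higher and 29 lower, beside 1.28% and 23.3% of all genes on that scale. Both genes were called higher in 4 pairs (SLC2A1, TOB1, UNC5B and TIPARP), and in 2 pairs (HIF1A and TMEM44) they were called in opposite directions. The antisense RNAs of SLC2A1, TOB1 and HIF1A would not have passed the filter without the 24 h libraries. Their calls, and so these pairs, count as no support. The test called both lower in 0 pairs, although both were lower in 15 pairs at an unadjusted p under 0.05 (limma), which 60.0% of all genes reached. These counts moved with the scale: TPM gave 0 pairs both higher, 5 both lower and 0 opposite, a pseudocount of 1 gave 0 opposite, and a pseudocount of 0.1 gave 2 both lower and 3 opposite. Both were higher in 14 pairs and they were opposed in 19 at that p. The antisense RNA alone was called in 19 pairs (9 higher, 10 lower), the sense gene alone in 17, and neither in 99. Antisense RNA and sense gene were measured in the same libraries, and the difference between their changes was not tested.

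**Figure D4:**
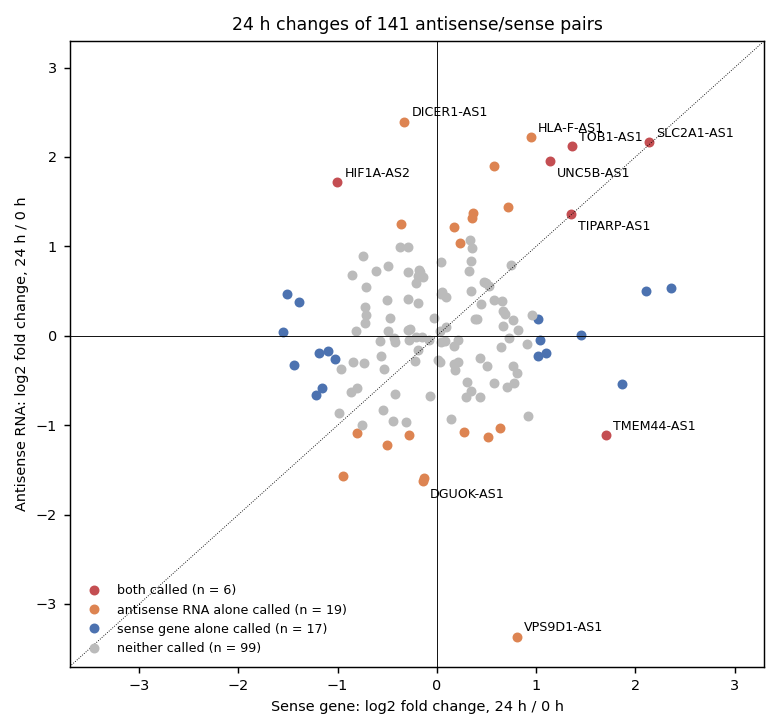
Log2 fold change at 24 h against 0 h of the antisense RNA (vertical) and of its sense gene (horizontal) for 141 pairs, on the scale FPKM + 0.5; the dotted diagonal marks equal changes and colours give which gene of a pair was called. SLC2A1 and TIPARP lie on the diagonal, HIF1A at upper left and TMEM44 at lower right.

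SLC2A1 measured 75.7, 74.8 and 73.1 FPKM at 0 h and 335, 311 and 341 FPKM at 24 h (log2 fold change 2.13, adjusted p = 3.11e-08). Its groups were far apart, and the antisense RNA stood at 0.437% ± 0.0839 of SLC2A1 at 0 h and 0.980% ± 0.155 at 24 h (SD, n = 3). TOB1 went from 29.8 ± 2.82 to 78.2 ± 15.8 FPKM (SD, n = 3, log2 fold change 1.36), and TOB1-AS1 from 0.584% ± 0.193 of it to 3.17% ± 0.425. UNC5B went from 3.64 ± 0.0839 to 8.68 ± 1.29 FPKM (log2 fold change 1.14), and TIPARP, the gene of a mono-ADP-ribosyltransferase, from 14.3 ± 2.23 to 36.9 ± 3.43 (log2 fold change 1.35).

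HIF1A measured 57.7, 63.2 and 62.9 FPKM at 0 h, 70.8, 69.4 and 59.0 at 1 h, 72.1, 63.0 and 75.3 at 2 h, and 28.5, 27.3 and 35.8 at 24 h. Every 24 h library was below every other, by 1.003 on the log2 scale (adjusted p = 2.38e-05), and HIF1A-AS2 reached 3.93% ± 1.34 of HIF1A (SD, n = 3). This change stood at the threshold: it was between -0.93 and -1.12 when 1 library was left out, and the call of HIF1A was lost without replicate 2 or 3 at 0 h and without replicate 1 or 2 at 24 h. TMEM44 measured 3.99, 4.16 and 4.93 FPKM at 0 h and 15.7, 15.4 and 14.7 FPKM at 24 h (log2 fold change 1.70, adjusted p = 4.83e-06). TMEM44-AS1, which lies opposite its 3′ part, measured 2.67, 1.91 and 2.04 FPKM at 0 h and 0.632, 0.936 and 0.682 FPKM at 24 h (log2 fold change -1.11, adjusted p = 4.50e-04), so its level went from 51.4% ± 13.7 of TMEM44 to 4.91% ± 1.07 (SD, n = 3). Without replicate 1 at 0 h its change was -0.99 and not called, and its call was also lost with a pseudocount of 1. With exact matches alone it was -0.40, because 77.2% of its FPKM was in transcripts of class j.

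**Figure D5:**
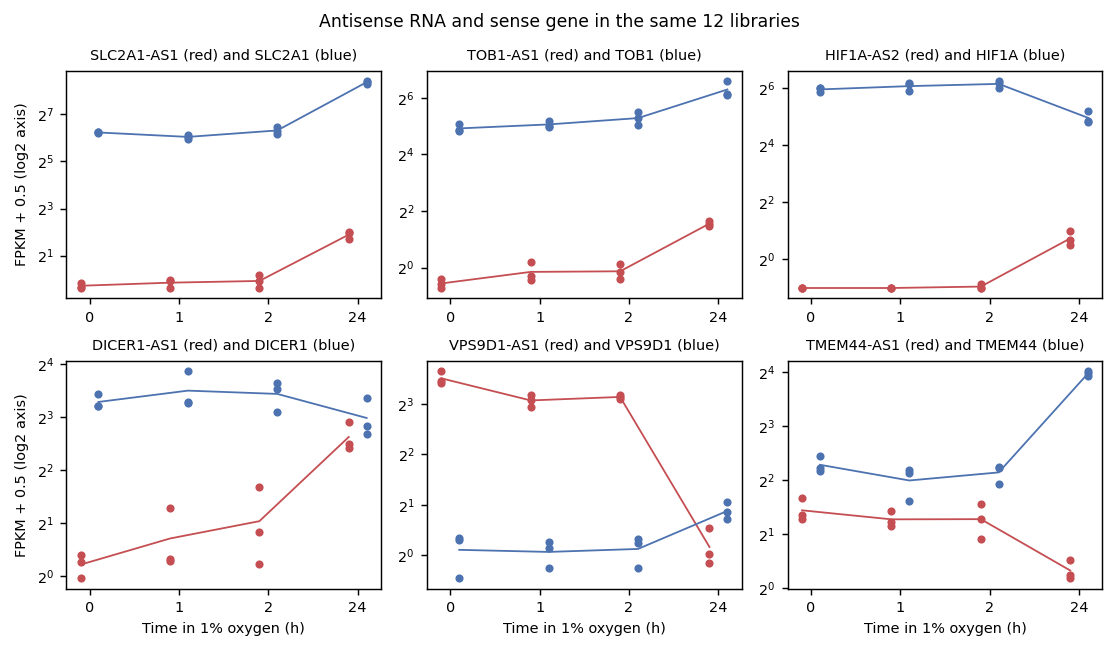
FPKM + 0.5 on a log2 axis in each of 12 libraries for 6 antisense RNAs (red) and their sense genes (blue), with lines through the means of 3 libraries at 0, 1, 2 and 24 h in 1% oxygen, evenly spaced. SLC2A1-AS1 and SLC2A1 climb together at 24 h, TMEM44-AS1 and TMEM44 part, and the 24 h means of VPS9D1-AS1 and VPS9D1 lie in the reverse order of those at 0 h.

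In the pairs where the antisense RNA alone was called, its level relative to the sense gene could move widely. DICER1 measured 8.73, 8.67 and 10.3 FPKM at 0 h and 5.87, 6.57 and 9.73 FPKM at 24 h, with overlapping groups (adjusted p = 0.212). DICER1-AS1 thereby went from 7.24% ± 2.05 of DICER1 to 82.4% ± 35.1 (SD, n = 3). VPS9D1 measured 0.230, 0.775 and 0.727 FPKM at 0 h and 1.31, 1.57 and 1.14 FPKM at 24 h, which did not pass the fold threshold (log2 fold change 0.81, adjusted p = 0.0170). In all 3 libraries at 0 h VPS9D1-AS1 was above VPS9D1, at 1346% to 4386% of it, and in all 3 at 24 h it was below, at 25.3% to 72.8%. HLA-F went from 5.16 ± 1.35 to 10.4 ± 2.45 FPKM (log2 fold change 0.95, adjusted p = 0.00140), and HLA-F-AS1 from 26.2% ± 14.3 to 77.1% ± 22.0 of it (SD, n = 3). DGUOK measured 69.7 ± 3.15 FPKM at 0 h and 63.8 ± 12.7 at 24 h (SD, n = 3), with overlapping groups. RAB30-AS1 stayed above RAB30, at 768% ± 33.3 of it at 0 h and 205% ± 41.8 at 24 h (SD, n = 3).

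Across the 141 pairs the antisense RNA stood at a median of 10.0% of its sense gene at 0 h and 10.6% at 24 h. Its mean was above that of the sense gene in 14 pairs at 0 h and 16 at 24 h, of which 12 were shared. At 24 h the highest shares were those of EPB41L4A-AS1, at 1827% ± 298 of its sense gene, and THAP9-AS1, at 1000.04% ± 208 (SD, n = 3). Transcripts under 300 bases held 32.6% of the FPKM of EPB41L4A-AS1, so its level is less certain, and 0% of that of THAP9-AS1. THAP9, a gene derived from a transposase, measured 2.06 ± 0.338 FPKM at 0 h (SD, n = 3) beside a mean of 37.7 FPKM of its antisense RNA. Of the 17 pairs in which the sense gene alone was called, the following were chosen after their values were seen. NR2F1, the gene of an orphan nuclear receptor, measured 19.1, 16.2 and 19.7 FPKM at 0 h and 111, 90.9 and 86.1 FPKM at 24 h (log2 fold change 2.36, adjusted p = 2.74e-07), while NR2F1-AS1 measured 17.2, 15.7 and 17.4 FPKM at 0 h and 27.8, 26.9 and 19.9 FPKM at 24 h (log2 fold change 0.54). EIF3J, the gene of a translation initiation factor subunit, fell by 1.56 on the log2 scale, and EIF3J-AS1 had a log2 fold change of 0.04. TMPO, which encodes a protein of the nuclear lamina, fell by 1.16, beside the -0.59 of TMPO-AS1.

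By the annotation, 112 of the 166 lay on the opposite strand with the start of any of their transcripts within 1000 bases of the start of any transcript of the sense gene. Of these 112, 72 also overlapped the span of the sense gene, and 60 had an exon that overlapped one of its exons. With the outermost start of each gene alone, 73 were within that distance. A further 46 overlapped the sense gene with no such starts. Of the 112, 20 were called at 24 h (11 higher, 9 lower), which is 17.9%, and of the 46, 12 (6 higher, 6 lower), which is 26.1%, beside 18.3% of all genes tested. The difference between these shares was not tested. Of those called higher, SLC2A1-AS1 and TOB1-AS1 of the 112 and HIF1A-AS2 and FAM13A-AS1 of the 46 passed only with the 24 h libraries. Their calls count as no support for either share. Of the 166, 49 carry another name in the current annotation.

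A RefSeq promoter window was found for 141 members, and 100 of these (70.9%) held ACGTG or GCGTG on either strand, beside 48.4% of all RefSeq promoters. The median share of G and C was 65.7% in the members and 58.7% in all. Among members called higher 11 of 16 windows held the letters, among those called lower 10 of 13, and among those not called 79 of 112, which are shares of 68.8%, 76.9% and 70.5%.

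The nuclear exosome degrades many short-lived noncoding RNAs in the nucleus. Of a list of 25 tested genes for the nuclear exosome, its adaptors and the cap-binding complex, 7 fell and 0 rose (limma; 20 had an unadjusted p under 0.05, beside 60.0% of all genes), beside 9.51% of all genes called lower. Under TPM 14 were called lower, beside 23.3% of all genes. At an adjusted p under 0.05, 18 were lower and 1 was higher, beside 30.3% of all genes lower and 25.0% higher, and the median log2 fold change was -0.65, against -0.05 for all genes. Of the 10 EXOSC genes tested, which encode the exosome's own subunits, 6 were among the 7: EXOSC2 went from 69.0 ± 3.66 to 21.7 ± 1.39 FPKM (SD, n = 3, log2 fold change -1.65), EXOSC4 from 42.8 ± 4.29 to 14.04 ± 5.21 (-1.625) and EXOSC3 from 63.5 ± 1.35 to 24.5 ± 1.88 (-1.36). EXOSC6, EXOSC8 and EXOSC9 changed by -1.10, -1.09 and -1.22. EXOSC1, EXOSC5 and EXOSC7 were not called, with log2 fold changes of -0.996, -0.27 and -0.40. NCBP1, the large subunit of the nuclear cap-binding complex, went from 27.3 ± 2.39 to 7.77 ± 1.29 FPKM (-1.76). PAPD7, the gene of a poly(A) polymerase, had a log2 fold change of 0.89. The catalytic subunits DIS3 and EXOSC10 had log2 fold changes of -0.39 and -0.79, and ZFC3H1, a nuclear exosome adaptor, one of 0.22. Over the same libraries the median change of the 166 antisense RNAs was 0.05, and the part of these genes in any change of an antisense RNA was not tested.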

How the data were processed

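Strand-specific polyA RNA-seq was made from 12 HCT116 samples (0, 1, 2 and 24 h, 3 each). The authors deposited FPKM per transcript, made with Mapsplice on hg19 and Cufflinks (Ensembl v74 merged with new transcripts, quantified together); the labels also name CASAVA 1.8.2. FPKM of class codes = and j was summed per gene name, kept above 0.5 in at least 3 libraries, and tested as log2(FPKM + 0.5) with limma 3.58.1 (R 4.3.3; trend) over all 12 libraries, with a time factor. On data simulated for 24 h against 0 h over 16679 genes, changes of 1.5, 2 and 3 on the log2 scale were called in 82.1%, 91% and 97% of cases, and 2 of 16479 unchanged genes were called. The changed genes were first set to a level of at least 3 on the log2(FPKM + 0.5) scale. Most members lay below that level (median of the mean FPKM 1.594), so the shares do not apply to them. Positions are from GENCODE v44 lifted to GRCh37, in which 96.5% of the matched transcripts lay inside the locus in the table. The precision rests on 3 libraries per group, since FPKM gives no depth. An exact permutation test of 3 against 3 cannot go below p = 0.1 and was not used. Genes named were the 12 largest calls in each direction, the 5 most abundant, pairs called in both genes, a list of 20 and those at the threshold; other called members and the HOX cluster RNAs were named after their values were seen. Same-numbered libraries deviated together in all 3 pairs of 0 h with 2 h (r from 0.129 to 0.362) and of 1 h with 2 h (r from 0.117 to 0.428). They did not in all pairs of 0 h with 24 h (r from -0.000811 to 0.242) or of 0 h with 1 h (lowest r 0.0954). The members and lists were chosen with earlier results of these data known. Alternatives changed the pseudocount, filter, class codes, scaling, fit, threshold and libraries. Some gene names are not reported here.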

Additional observations from a re-analysis of the deposited data

Results flagged for a closer look

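CDKN2B-AS1, opposite the gene of the cell cycle inhibitor p15, had transcripts of class codes other than = and j, which were left out of every sum above. They measured 0, 0.195 and 0.205 FPKM at 0 h and 1.01, 0.617 and 0.906 FPKM at 24 h, with a mean of 0.844 FPKM at 24 h above every control library. The transcripts that were counted for CDKN2B-AS1 measured 0.357, 0.622 and 0.664 FPKM at 0 h and 0.953, 1.26 and 0.735 FPKM at 24 h (log2 fold change 0.50, limma adjusted p = 0.0449), short of a call. Larger amounts were left out for CSTF3-AS1, whose transcripts of other class codes measured 113, 139 and 100.4 FPKM at 0 h and 154, 178 and 79.9 FPKM at 24 h, with overlapping groups, beside a counted mean of 3.53 FPKM at 0 h and 3.36 at 24 h.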

How the results depend on the processing

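Calls of antisense RNAs at 24 h (33, with 18 higher and 15 lower) numbered 22 to 41 under the other settings with the same thresholds. Among settings that kept the 16679 gene names, all genes called ran from 2487 (pseudocount of 1) to 4107 (TPM), against 3047 as reported. Leaving out 1 library at a time gave 30 to 34 calls, 17 to 21 higher and 12 to 16 lower. Of all 16679 genes, 2685 to 3235 were then called, 1292 to 1512 higher and 1393 to 1723 lower. At 1 h and 2 h it gave 0, beside at most 1 and 6 of all genes. Of the sense genes, 21 to 24 were called (12 to 14 higher, 9 to 12 lower). A pseudocount of 1 left 7 lower, beside 8.05% of all genes. TPM gave 6 higher and 25 lower, and 2 sense genes higher and 29 lower, beside 1.28% and 23.3% of all genes. The median of all genes was then -0.68. At 2 h TPM gave 1, beside 390 of all 16679 genes. An adjusted p under 0.05 with no fold threshold gave 77 (42 higher, 35 lower) and 84 sense genes (41 higher, 43 lower). Of all genes 55.3% passed (25.0% higher, 30.3% lower). At 2 h it gave 1, beside 0.312% of all genes. With the replicate block 35 were called at 24 h, beside 3105 of 16679 genes, and 0 at 1 h and 2 h, beside 0 and 4 of all genes. The numbers were not taken to pair the libraries (10 of 12 libraries correlated best with their own number, as a hint from the data). Summing transcripts of at least 300 bases alone, chosen after seeing the data, gave 34, of which 33 were shared, beside 3045 of 16266 genes.

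Of the 33, 12 kept their call in every setting run for them (DGUOK-AS1, DICER1-AS1, ENTPD1-AS1, FAM222A-AS1, FEZF1-AS1, HLA-F-AS1, PRKCQ-AS1, SLC2A1-AS1, TOB1-AS1, UNC5B-AS1, VPS9D1-AS1 and ZBTB11-AS1). Among these, SLC2A1-AS1 and TOB1-AS1 would not have passed the filter without the 24 h libraries, so their calls count as no support. The others lost their call 36 times under other settings and 21 times with 1 library left out, with 0 reversals. Uncalled RNAs changed sign: under TPM, C17orf76-AS1 (-0.36), ZEB1-AS1 (-0.33), FOXD2-AS1 (-0.21), GAS6-AS1 (-0.16), DDX11-AS1 (-0.26), MCM3AP-AS1 (-0.26) and VIM-AS1 (-0.15), all still above the median of all genes on that scale (-0.68); with 1 library left out, ZEB1-AS1 (-0.0926 to 0.412), DDX11-AS1 (-0.0213 to 0.250), MCM3AP-AS1 (-0.190 to 0.290), VIM-AS1 (-0.0466 to 0.454) and CAPN10-AS1 (-0.129 to 0.0171). The cause was not tested. FPKM near the added 0.5 limits the fold changes of the scarce RNAs.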
